A study of Mus musculus with 2 samples.

Results

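The 10 genes described here move, oxidise and store iron: Trf, Cp, Tfrc, Slc11a1, Slc39a14, Cd163, Fth1, Ftl1, Hmox1 and Slc40a1. They were picked by name for their role in iron handling, with earlier results of these data known, and all 10 were found among the 28692 genes counted, each with at least 50 UMIs over both libraries. Cells were the barcodes in which 500 or more genes were detected and mitochondrial genes gave no more than 10% of UMIs, which left 3881 control and 958 knockout barcodes.

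The study deleted Pgam1, a glycolytic enzyme, in adipocytes with Cre driven by the adiponectin promoter (Adipoq-Cre; floxed Pgam1, Adipo-Pgam1 KO), and compared these mice with littermates. The stromal vascular fraction (SVF) of gonadal white adipose tissue (gWAT) from C57BL/6 males aged 13 weeks was sequenced as 1 droplet library per genotype. The control mice are labelled littermate wildtype, while the methods describe Pgam1 flox/flox mice without Cre, and the number of mice in a library is not given. Mature adipocytes float and are mostly lost from the SVF, Cre activity in its preadipocytes was not measured here, and over all cells Pgam1 itself stood at 109.6 counts per 1000000 UMIs (CPM) in the control and 116.2 in the KO cells. From these cells the paper reports markedly lower Pgam1 in a KO fibroblast cluster rich in adipocyte markers. It proposes that these were preadipocytes in which Pgam1 was deleted. Pgam1 was not compared by cluster here.

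Iron travels in plasma bound to transferrin (Trf) and enters cells when the transferrin receptor (Tfrc) carries it into endosomes. Ferritin, a shell of heavy (Fth1) and light (Ftl1) chains, stores iron in the cytosol, and ferroportin (Slc40a1) is the exporter, working with ferroxidases such as ceruloplasmin (Cp). Macrophages recover iron from haem with heme oxygenase 1 (Hmox1) and return it through ferroportin, and iron regulatory proteins adjust several of these mRNAs by binding a hairpin, the iron-responsive element, which holds back translation from a 5′ UTR and protects the mRNA from decay in a 3′ UTR.

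These hairpins are shown because they are the feature by which 4 of the 10 mRNAs respond to iron. A search of the GENCODE transcripts (GRCm38) for an unpaired C, a stem of 5 pairs and a loop of 6 bases opening with CAGTG found 7 windows in the members, and the same pattern in 222 of 21877 protein-coding genes (1.01%). The sequences are written 5′ to 3′ on the gene's strand, each is 30 bases long, and the capitals mark the loop.
Fth1, 5′ UTR, plus strand, chr19:9982732-9982761: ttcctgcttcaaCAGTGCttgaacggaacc
Ftl1, 5′ UTR, minus strand, chr7:45459778-45459807: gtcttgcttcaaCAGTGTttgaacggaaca
Slc40a1, 5′ UTR, minus strand, chr1:45925464-45925493: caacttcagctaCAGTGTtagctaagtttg
Tfrc, 3′ UTR, plus strand, chr16:32631219-32631248: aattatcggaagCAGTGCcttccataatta
Tfrc, 3′ UTR, plus strand, chr16:32631598-32631627: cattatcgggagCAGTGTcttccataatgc
Tfrc, 3′ UTR, plus strand, chr16:32631663-32631692: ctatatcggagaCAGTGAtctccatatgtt
Tfrc, 3′ UTR, plus strand, chr16:32631710-32631739: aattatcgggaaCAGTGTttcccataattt
The 2 ferritin windows hold the same stem, and the windows of Tfrc all lie in its last exon, exon 19. Transcript 3′ ends were counted, so these data give mRNA levels and not translation, and a pattern match is not a measured binding site.

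The control library held 8522 barcodes with 42859406 UMIs and the KO library 2730 with 13821581, and 9 barcode sequences occurred in both. After the cell filter and removal of likely doublets, 3616 control and 937 KO cells were left, with a median of 6898 and 7494 UMIs. Cells fell into 22 clusters, grouped without any of the iron genes, and 15 clusters took the names of 10 cell classes from marker genes while 7 stayed unnamed. Values are UMIs summed over the cells of a class and divided by the class total (CPM), with exact 95% Poisson intervals for levels and exact conditional binomial intervals for ratios, which take in counting error alone. A test was not possible because each genotype had 1 library, and genotype and library cannot be told apart. A member was called different when its CPM differed at least 2-fold with at least 50 UMIs over both libraries.

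**Figure D1:**
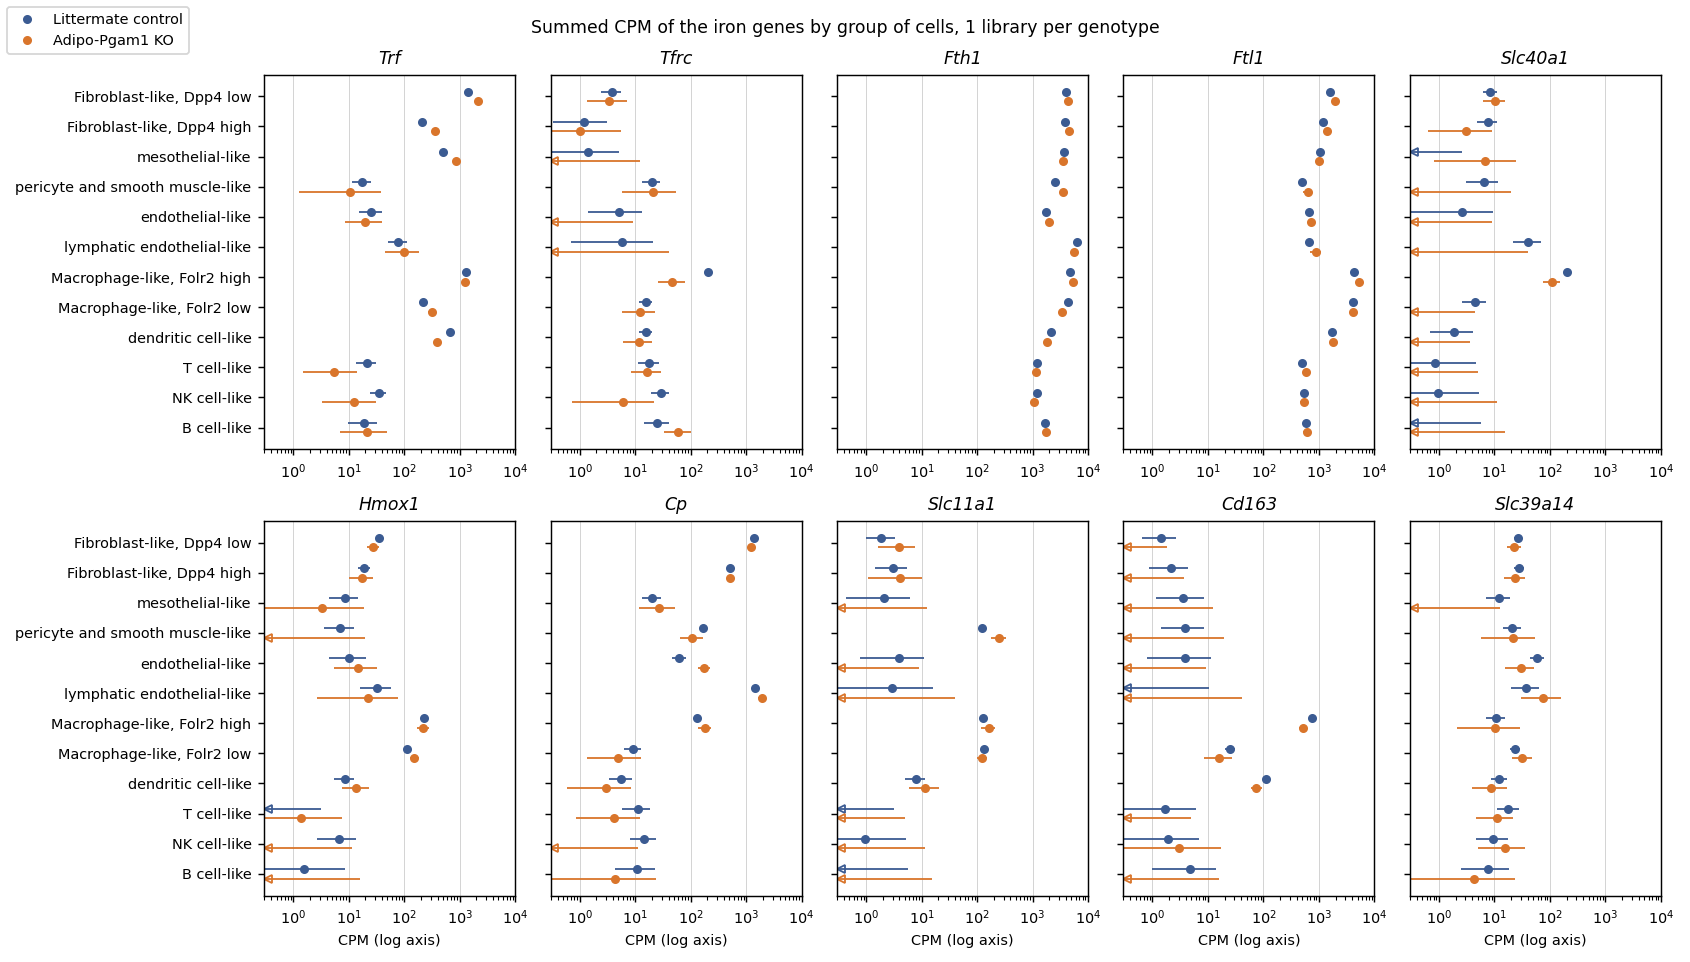
CPM (log axis) of each iron gene in the cell groups of the control (blue) and KO (orange) library, with bars for 95% counting intervals and open triangles for groups with 0 UMIs. Among the named classes Trf lay highest in fibroblast-like cells and Cp in lymphatic endothelial-like cells, and in the control Slc40a1, Cd163 and Tfrc were highest in the macrophage-like cells with high Folr2 markers. The control Trf level of these macrophage-like cells lay between those of the fibroblast-like cells low and high in Dpp4 markers.

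Trf, which encodes transferrin (chromosome 9, 103204001 to 103230444, minus strand), was highest in the fibroblast-like cells among the 10 named classes of both libraries. In the control it stood at 991 CPM there (971 to 1011, 781 cells), at 674 in dendritic cell-like, 639 in macrophage-like and 491 in mesothelial-like cells, and between 17.3 and 77.8 in the other 6 classes. In the KO library the order was fibroblast-like with 1583 CPM (1539 to 1628, 187 cells), mesothelial-like with 862, macrophage-like with 567 and dendritic cell-like with 387, and the other classes lay between 5.47 and 98.2. The intervals of the dendritic and macrophage-like cells overlapped in the control and not in the KO library. The ranking is one of whole classes. Within the macrophage-like class, the cluster with high Folr2 markers had 1296 CPM in the control, above the fibroblast-like class as a whole. In the KO library that cluster had 1267 CPM, below the fibroblast-like class. Against all other cells of the same library, fibroblast-like cells held 2.69-fold more Trf in the control (log2 1.43, 1.38 to 1.47) and 5.92-fold more in the KO library (log2 2.56, 2.49 to 2.64). Of all genes, 14.7% (control) and 16.1% (KO) were at least 2-fold higher in the same comparison.

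Within the fibroblast-like class, Trf separated the cluster low in the markers of Dpp4-positive progenitors from the one high in them. Its level in the Dpp4-low cells was 1397 CPM in control (522 cells) and 2172 in KO cells (122 cells), while the Dpp4-high cells had 212 (259 cells) and 355 (65 cells). Trf gave at least 1 UMI in 75.9% of the Dpp4-low cells of the control and 84.4% of those of the KO library, at median depths of 12023.5 and 18214 UMIs, against 8.80% and 3.48% of T cell-like cells at depths of 4485 and 6228. When every cell was thinned to 2000 UMIs, which left out 1 control Dpp4-low cell, the Dpp4-low shares were 56.0% (51.7 to 60.4) and 69.7% (60.7 to 77.7), and those of T cell-like cells 6.17% and 1.89%. Most Dpp4-low cells thus held Trf RNA, although a small number held much of it: the 10 cells with the most Trf UMIs carried 21.3% of the Dpp4-low total in control cells and 43.6% in KO cells. Such shares were not particular to the stroma. After the same thinning, 91.1% and 85.2% of the macrophage-like cells with high Folr2 markers had a Trf UMI. The thinned shares were 58.7% and 45.2% in dendritic cell-like and 52.6% and 82.4% in mesothelial-like cells.

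KO over control, Trf was higher in fibroblast-like cells by log2 0.68 (0.63 to 0.73), short of 2-fold, with 9548 and 4829 UMIs. The Dpp4-low cells differed by log2 0.64 (0.58 to 0.69), and by 0.27 without the 10 cells of each library with the most Trf UMIs. Those 10 are a larger part of the 122 KO than of the 522 control cells. In the Dpp4-high cells the difference was log2 0.75 (0.56 to 0.93), but 1 KO cell held 140 of the 351 UMIs, and without that cell the KO level was 217 CPM (189 to 248) against 212 in the control. Mesothelial-like cells, the lining cells of the fat pad, also had more Trf in the KO library (log2 0.81, 0.60 to 1.02, 106 and 20 cells), while dendritic cell-like cells had less (log2 -0.80, -0.96 to -0.64). That class held 187 and 38 cells of a cluster led by Ccl22 and Ccl17 (log2 -0.56, -0.73 to -0.38) and 72 and 26 of one led by Xcr1 (log2 -0.91, -1.26 to -0.56). In these dendritic cells the 9 macrophage markers summed to 628 CPM for the control (9 found) and 333 for the KO library (8 found, Mertk at 0), and the part of macrophage RNA in their Trf was not tested. Over all cells Trf differed by log2 0.29 (0.24 to 0.33), and by -0.04 without those 10 cells of each library.

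Macrophage-like cells split into 2 clusters by the markers of tissue-resident macrophages (Folr2, Lyve1, Timd4, F13a1, Gas6, Cbr2), and this split set the level of most members. The Folr2-high cluster held 356 of 649 macrophage-like cells in the control (54.9%) and 33 of 95 in the KO library (34.7%). Most cells of the class were thus Folr2-high in the control and Folr2-low in the KO library. By UMIs, which set the summed values, Folr2-low cells gave the larger part in both libraries. Without cells over 1% haemoglobin UMIs they held 3641208 against 2348631 UMIs in the control and 763207 against 297521 in the KO library. The class as a whole was therefore compared only beside its 2 clusters. Trf was 1296 CPM in the Folr2-high cells of the control and 1267 in those of the KO library (log2 -0.03, -0.19 to 0.12), and 216 and 311 in the Folr2-low cells. Free RNA from stromal cells can enter any droplet, and the summed fibroblast markers (8 of 8 found) reached 442 and 316 CPM in Folr2-high cells against 43364 and 43959 in the fibroblast-like class. In Folr2-high cells without any UMI of those markers, Trf was 1292 CPM in control (60 cells) and 1396 in KO cells (11 cells). In such Folr2-low cells it was 272 CPM (36 cells) and 664 (19 cells), so the KO value was over 2-fold that of all KO Folr2-low cells.

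Cp encodes ceruloplasmin, the copper-carrying ferroxidase (chromosome 3, 19957054 to 20009145, plus strand, overlapping Hps3 on the other strand). Its level was highest in lymphatic endothelial-like cells, with 1453 CPM in control (56 cells) and 1899 in KO cells (12 cells), followed by fibroblast-like cells with 1075 and 987. The larger fibroblast-like class held 80.9% and 80.8% of all Cp UMIs of the libraries. Pericyte and smooth muscle-like cells followed in the control with 170 CPM, then endothelial-like cells with 61.5 and macrophage-like cells with 56.5, which did not differ beyond their intervals, and the other classes had between 5.60 and 19.9. Like Trf, Cp was higher in the Dpp4-low stroma, with 1367 and 1215 CPM (log2 -0.17, -0.23 to -0.11), than in the Dpp4-high cells, with 515 and 512. Unlike Trf, it was not higher in the KO stroma.

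Endothelial-like cells were the class in which Cp passed the 2-fold limit. The level was 61.5 CPM in control (48 UMIs, 151 cells) and 174 in KO cells (70 UMIs, 60 cells), a log2 ratio of 1.50 (0.95 to 2.06), where 1.46% of genes were at least 2-fold higher and 4.95% differed either way. Of the KO UMIs 91.4% came from 10 cells, and the log2 ratio was -0.00035 without the 10 highest cells of each library. That step takes a larger part of the 60 KO than of the 151 control cells, so the libraries were not trimmed alike. Cp gave a UMI in 15.9% (10.5 to 22.7) of the control and 26.7% (16.1 to 39.7) of the KO endothelial-like cells. Cp was also detected in the Folr2-high macrophage-like cells, at 130 and 178 CPM, and in the few control cells of that cluster with no fibroblast marker UMI it was 145 CPM (106 to 194). The 11 such KO cells held 2 Cp UMIs, or 32.1 CPM (3.89 to 116).

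**Figure D2:**
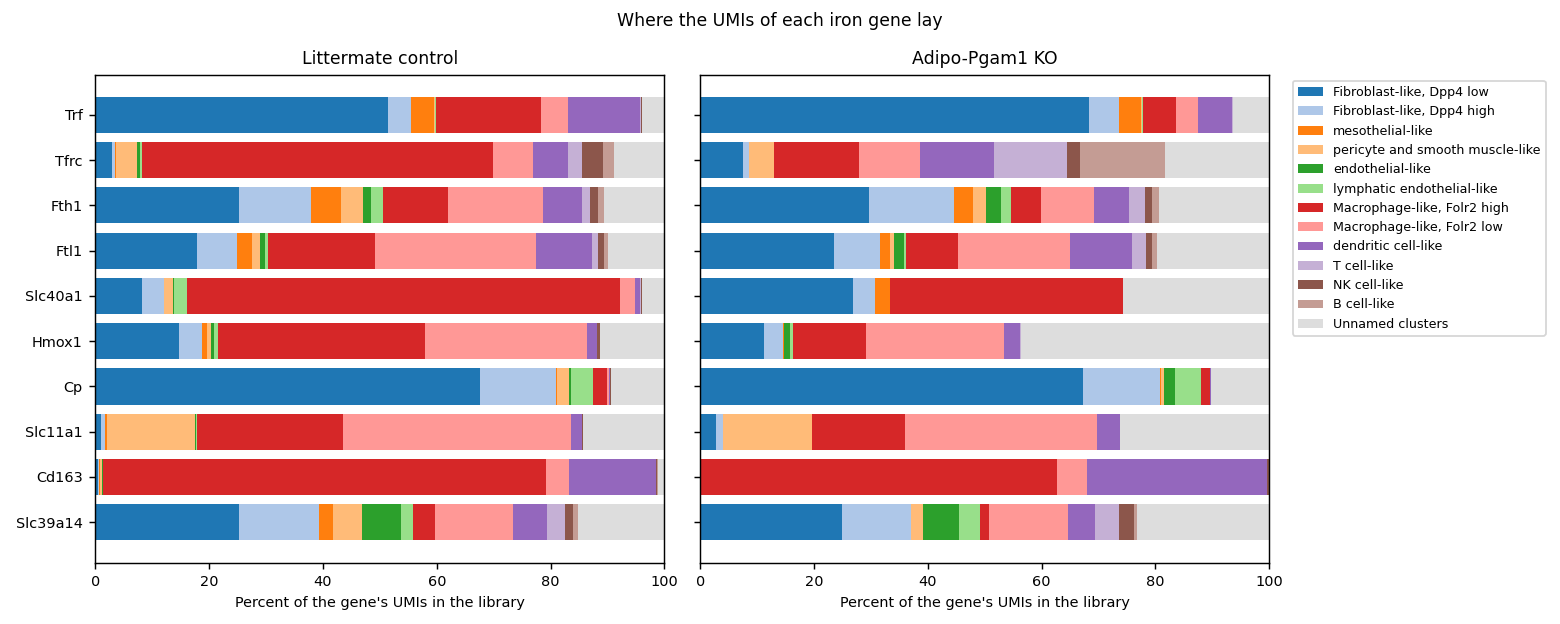
Percent of each gene's UMIs (horizontal axis) that lay in each cell class of the control (left) and KO (right) library, with the fibroblast- and macrophage-like classes split into their clusters. Most of the control UMIs of Slc40a1, Cd163 and Tfrc lay in Folr2-high macrophage-like cells, which made up 9.85% of control cells and 3.52% of KO cells.

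Tfrc, the transferrin receptor (chromosome 16, 32608920 to 32632794, plus strand), followed the Folr2-high cells in the control. Its level there was 208 CPM (509 UMIs) against 11.3 in all other control cells, an 18.4-fold difference (7.71% of genes were at least 2-fold higher there in the control and 8.67% in the KO cells), and 61.7% of the Tfrc UMIs of the library lay in that cluster. Folr2-low cells had 15.5 CPM, and NK, B, pericyte and smooth muscle, T and dendritic cell-like cells lay between 15.6 and 28.7 with overlapping intervals. Fibroblast-like cells, where Trf was highest, had 2.91 CPM. In the KO library the Folr2-high level was 47.1 CPM (14 UMIs in 9 of 33 cells), and the highest class was the B cell-like one with 59.7 (14 UMIs, 38 cells).

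KO over control, Tfrc was lower in Folr2-high cells by log2 -2.14 (-3.02 to -1.38). It was the only one of 9 measured members past 2-fold in these cells, where 8.20% of all genes were at least 2-fold lower and 10.2% differed in either direction. A count of 1 of 9 is close to that share of all genes. Tfrc gave at least 1 UMI in 55.1% (49.7 to 60.3) of the Folr2-high cells of the control and 27.3% (13.3 to 45.5) of those of the KO library, although the KO cells were deeper (median 10115 against 6665.5 UMIs), and the share in fibroblast-like cells was 3.33% and 3.21% at medians of 12312 and 17604. After thinning to 2000 UMIs, which left out 31 control and 6 KO cells, the Folr2-high shares were 32.3% and 7.41%, and the fibroblast-like shares 0.649% and 1.08%. The macrophage markers themselves (9 of 9 found) summed to 16577 CPM in the control and 18883 in the KO Folr2-high cells, and the 6 Folr2-cluster markers to 7046 and 4830. Folr2-low cells had 15.5 and 12.3 CPM of Tfrc (log2 -0.33, -1.46 to 0.65).

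Red cell RNA moved with these differences: the 6 erythroid markers summed to 11200 CPM in the control and 1210 in the KO Folr2-high cells. Without the cells holding over 1% haemoglobin UMIs (14 and 0 of the Folr2-high cells), Tfrc was 205 against 47.1 CPM (log2 -2.12, -3.00 to -1.36), about as large as with them.

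Slc40a1 encodes ferroportin, the iron exporter (chromosome 1, 45908068 to 45926523, minus strand). It was 14.3-fold higher in macrophage-like than in all other cells of the control (81.7 against 5.71 CPM, log2 3.84, 3.57 to 4.12) and 5.27-fold higher in the KO library (28.9 against 5.48, log2 2.40, 1.70 to 3.08). In that comparison 7.06% (control) and 7.09% (KO) of genes were at least 2-fold higher. Within that class nearly all of it was in the Folr2-high cells, with 202 CPM in control and 108 in KO cells (494 of the 649 and 32 of the 78 UMIs of the libraries), against 4.47 (17 UMIs) and 0 in the Folr2-low cells. Lymphatic endothelial-like cells of the control came next with 40.4 CPM (22.1 to 67.7, 14 UMIs), while those of the KO library had 0 UMIs in 12 cells, and their interval reached 40.3 CPM. Fibroblast-like cells had 8.10 and 7.87 CPM, and B cell-like cells 0 in both libraries.

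KO over control, Slc40a1 in Folr2-high cells was lower by log2 -0.91 (-1.47 to -0.39), which did not reach 2-fold. The KO value came from 32 UMIs in 12 cells, of which 10 were in 1 cell. The share of Folr2-high cells with a UMI was 43.0% (37.8 to 48.3) and 36.4% (20.4 to 54.9), with overlapping intervals, and 24.9% and 11.1% after thinning, which left out 31 control and 6 KO cells. T cell-like cells, at medians of 4485 and 6228 UMIs, had a UMI in 0.400% and 0% of cells (0 of 115, an interval up to 3.16%), and in 0.412% and 0% when thinned. Without the cells holding over 1% haemoglobin UMIs the control level was 203 CPM.

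Cd163, the macrophage receptor for haemoglobin bound to haptoglobin (chromosome 6, 124304656 to 124330527, plus strand), was the member most tied to the Folr2-high cells. Its level there was 742 CPM in the control, 40.4-fold above the other cells, and 508 in the KO library, 51.9-fold above. Folr2-low cells had 95 and 13 UMIs (25.0 CPM in the control) and dendritic cell-like cells 110 and 74.1. In dendritic cell-like cells without any UMI of the macrophage markers, some of which dendritic cells also express, it was 33.3 CPM (15.95 to 61.2) in 27 control cells and 0 in 14 KO cells (an interval up to 31.98), and the part of macrophage RNA was not tested. No other class exceeded 4.68 CPM. KO over control, Cd163 in Folr2-high cells differed by log2 -0.55 (-0.80 to -0.31), with 1817 and 151 UMIs, and 61.0% and 42.4% of those cells had a UMI (52.0% and 37.0% thinned).

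Over the whole macrophage-like class, 3 of 10 members lay past 2-fold on the lower side in the KO cells, namely Tfrc (log2 -2.07), Slc40a1 (-1.50) and Cd163 (-1.05), and 0 were higher, where 5.02% of all genes were lower, 1.64% higher and 6.66% either. The same 3 of 10 were lower over all cells (-1.47, -1.38 and -1.60), where 2.02% of genes were lower, 2.48% higher and 4.5% either. The median of the members in the macrophage-like class was log2 -0.15, beside -0.10 for all genes measured. These class values combine clusters whose shares differed between the libraries. The KO levels of both clusters were also weighted by their UMI shares in the control. Tfrc was then at log2 -1.81, Slc40a1 at -0.96, Cd163 at -0.55 and Trf at 0.10. Only Tfrc was past 2-fold, and Slc40a1 lay close to that limit. What part of the class differences came from the cluster shares was not tested.

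Slc11a1 encodes NRAMP1, which moves iron out of the phagosome of macrophages (chromosome 1, 74375195 to 74386062, plus strand). Unlike ferroportin it did not distinguish the macrophage clusters, with 131 CPM in both the Folr2-high and the Folr2-low control cells and 161 and 122 in those of the KO library. The KO and control intervals overlapped in each cluster. Pericyte and smooth muscle-like cells had as much as macrophage-like cells in the control, 124 against 131 CPM. This signal was in 1 of the 2 clusters of that class, the one led by Tagln and Notch3, with 223 CPM in control (92 cells) and 287 in KO cells (14 cells), against 24.4 and 57.5 in the cluster led by Abcc9 and Kcnj8. In the pericyte and smooth muscle-like cells with no macrophage marker UMI it was 147 CPM in control (139 cells) and 238 in KO cells (14 cells). The class values of 124 and 244 CPM (log2 0.98, 0.48 to 1.45) go with a shift in cluster make-up, from 126 and 92 cells in the control to 7 and 14 in the KO library, and in the Tagln cluster alone the ratio was log2 0.36 (-0.15 to 0.85).

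Slc39a14 encodes ZIP14, an importer of iron not bound to transferrin (chromosome 14, 70303469 to 70351425, minus strand). It was found at low levels in every control class, highest in endothelial-like cells with 58.9 CPM (43.1 to 78.6) and lymphatic endothelial-like cells with 37.5 (20.0 to 64.1), whose intervals overlapped, then 27.0 in fibroblast-like cells and between 7.80 and 21.2 elsewhere. KO over control it was log2 -0.98 (-2.04 to -0.05) in endothelial-like cells on 46 and 12 UMIs, and log2 -0.23 (-0.64 to 0.15) in fibroblast-like cells. The intervals allow differences of either sign in the stroma.

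Fth1, the ferritin heavy chain that oxidises the iron it takes up (chromosome 19, 9980598 to 9985098, plus strand), was abundant everywhere. Control levels ran from 1211 CPM in T cell-like cells through 3958 in fibroblast-like and 4517 in macrophage-like cells to 6224 in lymphatic endothelial-like cells, and the KO levels from 1061 in NK cell-like to 5666 in lymphatic endothelial-like cells. The T and NK cell-like values overlapped in both libraries, and so did those of endothelial-like and B cell-like cells. Ftl1, the light chain (chromosome 7, 45457944 to 45459884, minus strand), was more uneven, at 4157 and 4405 CPM in macrophage-like cells, 1710 and 1810 in dendritic cell-like, 1431 and 1767 in fibroblast-like cells and between 492 and 1032 in the other control classes. Reads of ferritin genes can fall on near-identical pseudogenes, which makes their levels uncertain, though the 1 annotated Ftl1 pseudogene counted here held 455 UMIs beside 93942 of Ftl1.

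Both ferritin chains were slightly higher in the KO stroma, Fth1 by log2 0.14 (0.11 to 0.17) and Ftl1 by 0.30 (0.26 to 0.35), and the KO Folr2-high cells showed the same at 0.19 (0.11 to 0.26) and 0.29 (0.21 to 0.37). In Folr2-low cells Fth1 was lower by log2 -0.38 (-0.43 to -0.32) and Ftl1 differed by 0.01 (-0.05 to 0.06). A single control Folr2-low cell held 2030 of the 16723 Fth1 UMIs, and without it the control level was 3895 CPM in place of 4397, against 3389 in the KO library. The differences are small beside the 2-fold limit, and a change of scaling by edgeR's TMM factors alone adds 0.03 to 0.10 to a ratio in the groups compared.

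Hmox1 breaks haem down and frees its iron (chromosome 8, 75093621 to 75100589, plus strand). Macrophage-like cells held 158 and 171 CPM of it, 7.14-fold and 4.48-fold above all other cells. An unnamed cluster led by S100a9 and Plac8 had a similar level in the control. The Folr2-high cells had 226 and 222 CPM (log2 -0.03, -0.42 to 0.34) and the Folr2-low cells 114 and 153 (log2 0.43, 0.13 to 0.72). Fibroblast-like cells had 29.7 and 24.3 CPM, which overlapped the lymphatic endothelial-like values of 31.7 and 21.8, and B and T cell-like cells had at most 1.56. Thus Hmox1 did not differ beyond counting error in the cells where Tfrc, Slc40a1 and Cd163 were lower.

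**Figure D3:**
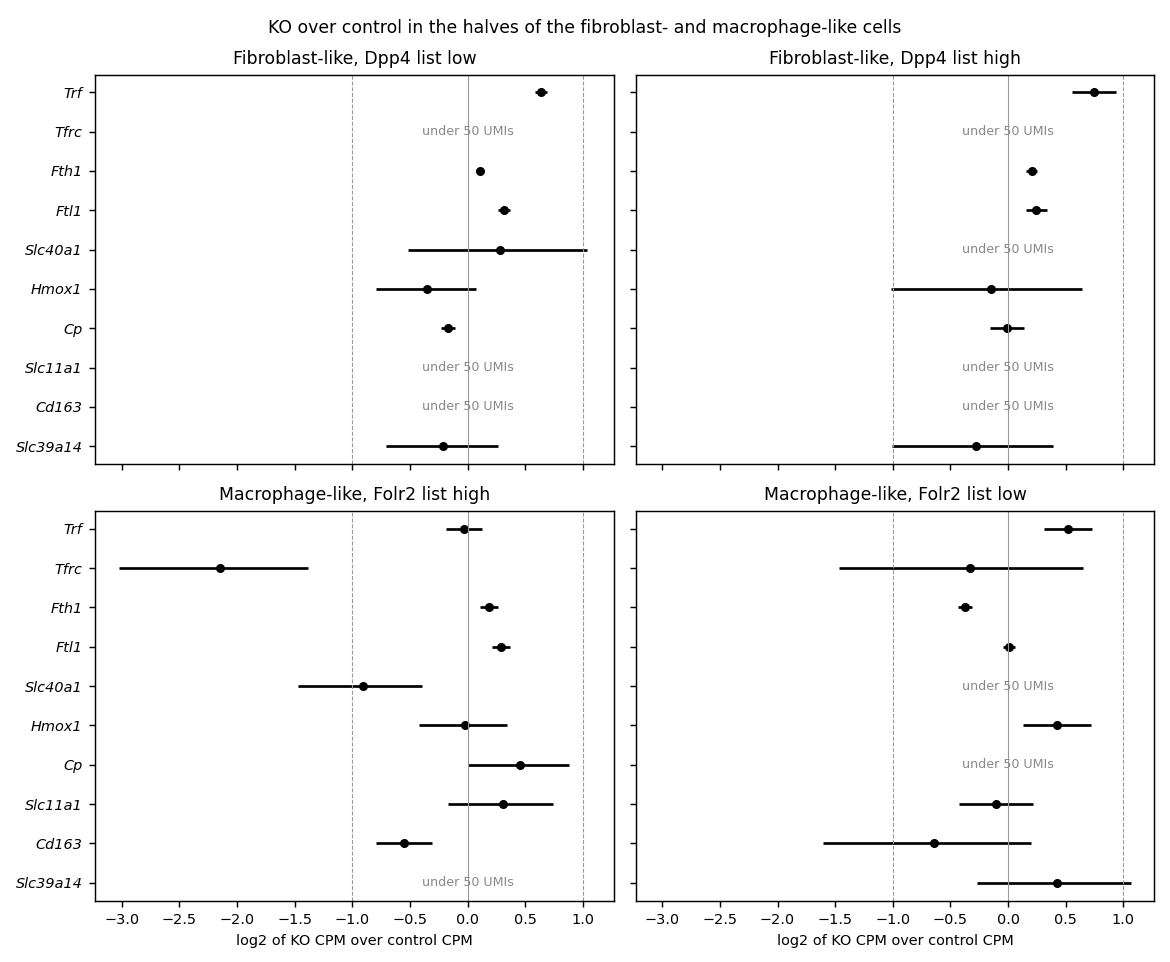
Log2 ratio of KO over control CPM (horizontal axis) of each iron gene in both fibroblast-like and both macrophage-like clusters, with 95% counting intervals and dashed lines at 2-fold. Genes with under 50 UMIs over both libraries are marked and have no point. Only Tfrc in Folr2-high cells lies past a dashed line, and 10.2% of all genes measured in those cells differed as much.

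In the stroma 0 of 7 measured members were past 2-fold in the fibroblast-like class, where 3.10% of genes were, 0 of 7 in Dpp4-low cells (2.97%) and 0 of 6 in Dpp4-high cells (3.54%). The median of the members was log2 -0.04 in the class beside -0.10 for all genes. Folr2-low cells had 0 of 8 (5.16%), dendritic cell-like 0 of 5 (4.10%), mesothelial-like 0 of 3 (5.48%), lymphatic endothelial-like 0 of 3 (11.4%) and pericyte and smooth muscle-like cells 0 of 4 (14.4%). B, NK and T cell-like cells had 0 of 2 each, where 4.89%, 3.63% and 2.86% of genes were past 2-fold.

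Of 58 other listed genes of iron handling, 45 had at least 50 UMIs over all cells, and 2 were past 2-fold on the higher and 2 on the lower side in the KO cells (2.48% and 2.02% of all genes). The median of the list was log2 -0.17, beside -0.07 for all genes. None of the transferrin route and metal reductases (7 measured), ferritin turnover genes (3), iron regulatory proteins (3) or mitochondrial iron genes (8) was among the 4. Alas2, the erythroid enzyme of haem synthesis, was 20.7 and 4.63 CPM (log2 -2.16), and without cells holding over 1% haemoglobin UMIs (129 control and 18 KO cells) it was 1.09 and 1.71. Spic, a transcription factor of macrophages that recycle red cells, was 2.23 and 0.631 CPM on 68 and 6 UMIs. In Folr2-high cells, a smaller part of the KO library, Spic was 15.5 and 20.2 CPM on 38 and 6 UMIs. The log2 ratio there was 0.38 (-1.16 to 1.63), on too few UMIs for a call. An unnamed cluster led by S100a9 and Plac8 held 15 control and 0 KO UMIs of Spic. Whether the share of Folr2-high cells set the difference over all cells was not tested.

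Lcn2, which binds iron-carrying siderophores, was 26.6 and 71.5 CPM over all cells (log2 1.43 KO over control). Of its 680 KO UMIs, 485 lay in an unnamed cluster of 27 KO cells led by Mt3, Tmem212 and Foxj1, and 295 of those in 1 cell. Without that cell the KO cluster still held 2058 CPM (1776 to 2372), against 640 in the control. Slc7a11, a cystine transporter under NRF2 control, was 5.13 and 16.2 CPM (log2 1.66). In macrophage-like cells 1 cell held most of its KO UMIs together with Srxn1, since 1 KO Folr2-low cell of 28937 UMIs held 64 of the 76 Srxn1 UMIs of its cluster, 52 Slc7a11, 16 Hmox1 and 407 Ftl1 UMIs. Without that cell the KO cluster had 15.3 CPM of Srxn1 and 16.6 of Slc7a11, against 29.7 and 19.7 in the control, so neither was higher. Slc7a11 was also higher in the KO cells of an unnamed cluster led by S100a9 and Plac8 (35.4 and 154 CPM) and of the dendritic cell-like cluster led by Ccl22 (21.2 and 58.5 CPM).

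In fibroblast-like cells 39 of the 58 were measured, with 1 higher and 2 lower in the KO cells (1.4% and 1.70% of all genes). Hp, haptoglobin, the plasma partner of haemoglobin that Cd163 takes up, was 328 and 152 CPM (log2 -1.11, -1.26 to -0.97), and in the Dpp4-low cells with little haemoglobin 428 and 171. Slc25a37, the mitochondrial iron importer, was 10.2 and 4.92 CPM on 98 and 15 UMIs, and Lcn2 11.2 and 27.9, with 58 of the KO UMIs in 1 Dpp4-high cell. In macrophage-like cells 35 were measured, of which Srxn1 and Slc7a11 were higher and Alas2 lower (1.64% and 5.02% of all genes). The 1 KO cell described above held 64 of the 78 Srxn1 and 52 of the 65 Slc7a11 UMIs of the KO class.

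The genes most like each member were sought across the 10 classes of the control library by the correlation of log2(CPM + 1) over 10616 genes, as a description in which all points share 1 library. They were picked for the highest control r, so high control values follow from the choice. The KO values were not selected, and a lower one is not read as a difference between the libraries. Cd163 went with Clec4a3 (r 0.978 for the control, 0.999 for the KO library), Alox5ap (0.97, 0.91) and Cd68 (0.97, 0.85), and Slc40a1 with Atp6v1e1 (0.92, 0.42) and Fam168a (0.90, 0.34). Trf went with Rab32 (0.95, 0.83), Abca9 (0.89, 0.90) and Pgap2 (0.89, 0.86), and Cp with Mafg (0.97, 0.55), Samd4b (0.95, 0.07) and Tfpi2 (0.93, 0.63). For Tfrc, 2310022A10Rik, Atmin and Rab35 had r of 0.98, 0.94 and 0.93 in the control and 0.22, 0.15 and 0.22 in the KO library. For Fth1 they were Atp6ap1 (0.95, 0.86) and Ctns (0.93, 0.19), and for Ftl1 Scamp2 (0.94, 0.91) and Ap2a2 (0.93, 0.79). Hmox1 went with Nfxl1 (0.93, 0.66), Nab2 (0.92, 0.66) and Snx6 (0.92, 0.34), Slc11a1 with Blvra (0.97, 0.58), Tnfrsf21 (0.93, 0.85) and 9030624J02Rik (0.92, 0.40), and Slc39a14 with Ptprm (0.96, 0.43), Bvht (0.93, 0.39) and Arhgap31 (0.93, 0.77).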

How the data were processed

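The authors made the libraries with the 10x Chromium 3′ chemistry (v3) and processed the reads with Cell Ranger 3.0.1 on mm10. The deposited counts are whole UMI counts per gene and barcode, without normalization, for barcodes called as cells. The annotation release is not given in the sources used here. The barcodes kept had 500 or more genes and no more than 10% mitochondrial UMIs, and the highest Scrublet scores were removed (0.8% per 1000 barcodes, 265 control and 21 KO cells). Both libraries were clustered jointly (2000 variable genes, 30 components, 20 neighbours, Leiden resolution 0.5) without the iron genes. A cluster took a class name when its mean marker z-score was above 0.5 and 0.75 above the next class, at least 3 markers were each found in 10% of its cells, and no other class led its top 10 genes. Summed counts were divided by class totals, ratios against 0 UMIs used 3 UMIs, and calls needed 50 UMIs. The members and gene lists were chosen with earlier results of these data known. All 10 members, Pgam1, listed iron genes past 2-fold and the 3 genes most like each member were named by rule, except a few genes that are not reported here, and single cells that held most of a gene's UMIs were looked up after the values were seen. There were 16 alternatives set beforehand and 3 added after seeing the data. The ratio step was tested on simulated data. Meltf, Flvcr1 and Flvcr2 were matched through RefSeq synonyms. The tools were edgeR 4.0.16 (TMM only) under R 4.3.3, and under Python 3.11.15 scanpy 1.11.5 with igraph 0.11.9 and leidenalg 0.10.2, then scikit-learn 1.9.0, pandas 2.3.3, scipy 1.17.1 and numpy 2.4.6.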

Additional observations from a re-analysis of the deposited data

Results flagged for a closer look

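Trf differed between the libraries in opposite directions in fibroblast-like cells (log2 0.68 KO over control) and dendritic cell-like cells (log2 -0.80), a gap of 1.47 on the log2 scale. Cp was slightly lower in KO fibroblast-like cells (log2 -0.12) and higher in KO endothelial-like cells (log2 1.50), a gap of -1.62. These were picked out because the intervals of the paired ratios lay on opposite sides of 0. Each rests on 1 library per genotype, and the differences between the classes were not tested.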

How the results depend on the processing

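Across 19 other settings, 913 values of 60 ratios were recomputed: 15 changed the sign of a ratio whose interval lay on 1 side of 0, and of the others 687 stayed within the interval of the reported value and 211 moved outside it. Of those others, 34 changed the sign of a ratio whose interval spanned 0, among them Slc39a14 in macrophage-like cells (0.48 to -1.57) and Hmox1 in all cells (0.11 to -0.82) without the 10 cells with the most UMIs, and Cp in weighted macrophage clusters (-0.14 to 0.37). The log2 ratio of Trf in fibroblast-like against other control cells, 1.43 as reported, was 1.56 with a looser cell filter (200 genes, 20% mitochondrial UMIs), 1.19 with a stricter one (1000 genes, 5%), 1.34 without doublet removal, 1.51 with TMM factors, 1.34 as a mean over cells and 1.19 without the 10 cells with the most UMIs. That of Slc40a1 in macrophage-like cells, 3.84, was 5.01 and 3.08 under those cell filters, 5.19 and 4.24 at resolutions 0.3 and 1.0, 4.19 with each library clustered alone, 4.14 with TMM, 4.34 as a mean over cells and 4.35 thinned to 2000 UMIs. The count of 3 members past 2-fold in macrophage-like cells became 1 with the looser filter, at resolution 0.3 and with weighted macrophage clusters, and 5 without the 10 highest cells. It was 2, without Cd163, at resolution 1.0, without shared barcodes, with TMM and without cells over 1% haemoglobin UMIs (-0.99), and with the stricter filter the 3 were Tfrc, Cd163 and Slc39a14. At resolution 0.3 the name was held by the Folr2-high cluster alone (356 and 33 cells). The count of 0 in fibroblast-like cells became 1 without those cells, and the count of 3 over all cells ran from 2 to 3. Clustering the KO library alone named 0 macrophage-like cells and gave no such value. The 15 sign changes of ratios whose interval lay on 1 side of 0 were these. Without the 10 highest cells, Slc40a1 in KO macrophage-like against other cells was -0.10, and KO over control Trf was -0.041 in all cells and -0.93 in Dpp4-high cells, Ftl1 -0.078 in macrophage-like and Cp -0.00035 in endothelial-like cells. This setting takes 10 cells from each library and so a larger part of the smaller KO groups, such as 10 of 33 KO Folr2-high cells. Slc11a1 in control pericyte and smooth muscle-like cells was -0.19 with the stricter filter. In macrophage-like cells the looser filter gave Trf 0.11, Fth1 0.082 and Cd163 0.10, weighted clusters gave Trf 0.10, and Fth1 was 0.19 at resolution 0.3, 0.10 as a mean over cells and 0.070 thinned. Over all cells Fth1 was 0.039 as a mean over cells and 0.015 thinned. Other than through fewer cells, the causes were not tested. No paired analysis was possible because each genotype had 1 library and no result came from a test. The small number of cells, 33, limits the KO Folr2-high values, which rest on 32 Slc40a1 and 14 Tfrc UMIs.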

Other observations

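In an unnamed cluster led by S100a9, Plac8 and Treml4 (125 control and 35 KO cells), the iron genes had a profile of their own. Slc11a1 was 206 and 196 CPM, above the macrophage-like levels, and Ftl1 3030 and 3863, below them, while Cd163 had 2 and 0 UMIs. Hmox1 was 173 CPM in control and 585 in KO cells, where 1 cell held 180 of the 209 UMIs, and the KO level without that cell was 84.8 (56.8 to 122). Slc40a1 had 5 UMIs in the 125 control cells and 16 in the 35 KO cells. Its level was thus higher in the KO cells, the reverse of the macrophage-like class, on too few UMIs for a call.

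Another unnamed cluster was led by haemoglobin genes and shallow (144 and 52 cells). Its Trf level was 763 CPM in control and 2070 in KO cells, with Cp at 639 and 655 and Fth1 at 4126 and 7043. The one led by Ptn and Tenm2 (80 and 20 cells) had Cp at 979 and 890 CPM, close to the fibroblast-like level, beside Trf at 100.4 and 63.3 and Slc40a1 at 0 UMIs in both libraries.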
